A study of Mus musculus with 2 samples.

Results

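Myh11, Tagln, Acta2, Cnn1, Mylk and Smtn are 6 genes of the smooth muscle contractile apparatus, several of which also mark myofibroblasts, the contractile cells of a healing wound. They were taken by symbol from the 32285 features of 2 Visium libraries of the infarcted neonatal mouse heart, and all 6 were found once. In Visium, tissue RNA binds to spots with known barcodes, and a spot lies under several cells. The C57BL/6 mice had the left anterior descending artery tied off at postnatal day 2, and their hearts were frozen 7 days after that. One group, PD1 Het, carries the genotype PD1 +/- and the other, PD1 KO, carries PD1 -/-, which differ in the gene for the inhibitory T cell receptor PD-1. The labels do not name the allele. Each group is 1 transverse section of 10 µm, cut 200 µm below the suture, and both hearts carry the infarct.

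In smooth muscle, calcium and calmodulin switch on myosin light chain kinase, which phosphorylates the light chains of smooth muscle myosin and so lets it pull on actin filaments. Calponin, transgelin and smoothelin bind those actin filaments. Most of these genes are switched on by serum response factor with its partner myocardin, and fibroblasts that turn into myofibroblasts switch on part of the same set under TGF-beta and mechanical load. Developing cardiomyocytes use some of them for a time as well. In the heart the walls of coronary arteries hold the most smooth muscle, while pericytes surround the capillaries.

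Serum response factor binds the CArG box, so the 250 bases before the annotated start were searched in the RefSeq promoter table (GRCm38.p6), which held 4 of the 6 genes, Acta2, Cnn1, Mylk and Smtn. The windows of Acta2, Cnn1 and Smtn are shown, since these 3 genes had 3 different distributions over the sections. Capitals mark motif matches, and each sequence reads 5′ to 3′ toward the start of its gene, on the gene's strand.
Acta2, chr19:34255374-34255623, minus strand: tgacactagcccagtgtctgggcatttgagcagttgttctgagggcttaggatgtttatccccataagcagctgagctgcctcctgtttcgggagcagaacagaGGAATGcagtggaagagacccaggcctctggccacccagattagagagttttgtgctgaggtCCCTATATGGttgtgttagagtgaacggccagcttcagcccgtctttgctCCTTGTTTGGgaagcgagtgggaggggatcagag
Cnn1, chr9:22099003-22099252, plus strand: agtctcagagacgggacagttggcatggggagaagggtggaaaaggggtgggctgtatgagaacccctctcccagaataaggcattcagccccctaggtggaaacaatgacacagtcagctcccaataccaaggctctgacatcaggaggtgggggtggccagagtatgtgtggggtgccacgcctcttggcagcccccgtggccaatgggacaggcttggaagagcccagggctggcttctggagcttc
Smtn, chr11:3539293-3539542, minus strand: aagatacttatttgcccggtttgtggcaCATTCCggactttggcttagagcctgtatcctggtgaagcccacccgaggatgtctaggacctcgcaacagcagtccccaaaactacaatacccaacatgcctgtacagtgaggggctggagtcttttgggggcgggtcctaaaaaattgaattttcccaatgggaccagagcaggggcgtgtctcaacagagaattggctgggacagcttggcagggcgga
None of the 4 windows held an exact CArG box, a pattern that reads the same on both strands and was present in 1.47% of all 32851 windows. Acta2 held 2 forms with a single G or C in the A and T core, CCCTATATGG and CCTTGTTTGG, whose first bases lay 84 and 34 bases before the start. Such a form was present in 7.24% of windows, and the windows of Cnn1, Mylk and Smtn had none. The motif CATTCC, searched on both strands, was present once each in Acta2, Mylk and Smtn, against 12.6% of windows. No motif match overlapped another. A match is a run of letters and not a measured binding site.

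Spots with at least 500 UMIs were used, which left 811 PD1 Het spots with 12814494 UMIs and 851 PD1 KO spots with 23520499 UMIs. The median depth was 15475 and 27134 UMIs per spot, and mitochondrial genes took 25.6% and 15.9% of the UMIs. Xist had 541 UMIs for PD1 Het and 1 for PD1 KO, while 4 Y-linked genes had 1 and 2900, so sex and genotype cannot be told apart. Ventricular cardiomyocyte markers summed to 79759 and 79514 CPM (UMIs scaled to an equal total in both sections), with 0 of 12 markers at 0, as the heart label requires. Of the array positions, 225 were listed in both sections, which is a shared barcode design and not shared tissue. No replicates exist, so no test was run, and every interval is a 95% interval that covers counting error only. Fewer cells of a type and less RNA per cell cannot be told apart in such spots.

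Of the 6 genes, Cnn1 differed most between the sections, Tagln was moderately higher for PD1 KO, and Acta2, Myh11, Mylk and Smtn lay within 1.2-fold by CPM. The ratio is PD1 KO over PD1 Het throughout. The median gene, over the 11455 genes whose UMIs reached 100 in the sections combined, lay at a log2 CPM ratio of 0.33, and a ratio is called relative after this value is subtracted. All 6 members passed that count. By the relative ratio, 1 of 6 members, Cnn1, exceeded the median gene by 1.5-fold or more, against 5.5% of all genes, and 0 lay as far below it, against 3.3%. By CPM, 2 of 6, Cnn1 and Tagln, were at least 1.5-fold higher, against 22.5% of all genes, and 0 were as much lower, against 0.681%. The median of the members was a log2 CPM ratio of 0.20 and a relative ratio of -0.13, so the sign depends on the scale.

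**Figure D1:**
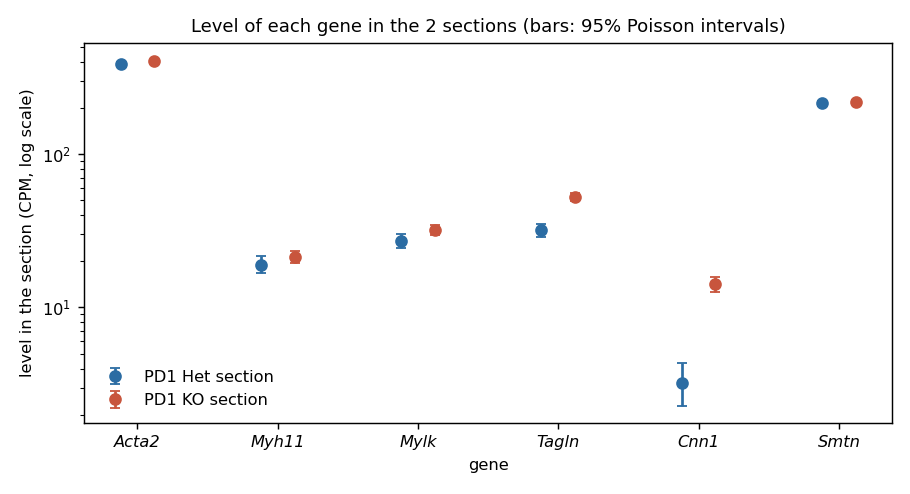
Level of the 6 genes in the 2 sections, in CPM on a log axis, with points for the sections and bars for 95% Poisson intervals. The points of Cnn1 (3.20 and 14.2 CPM) and Tagln (31.8 and 52.4 CPM) lie apart, and those of the other genes lie close together.

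Acta2 encodes smooth muscle alpha-actin, the thin filament protein used as the standard marker of myofibroblasts (ENSMUSG00000035783, chromosome 19, 34241090 to 34255590, GRCm38). It had 4916 PD1 Het UMIs and 9446 PD1 KO UMIs, or 384 (373 to 395) and 402 (394 to 410) CPM. These levels differ by a factor of 1.05 (1.01 to 1.08), and the relative log2 ratio was -0.27 (-0.32 to -0.22). Acta2 was detected nearly everywhere. After each spot was thinned to 10000 UMIs, it was present in 94.5% of the 759 spots left for PD1 Het and in 93.4% of the 839 left for PD1 KO.

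Myh11 encodes the smooth muscle myosin heavy chain, the motor of the thick filament and the most restricted marker of differentiated smooth muscle (ENSMUSG00000018830, chromosome 16, 14194535 to 14291372). It had 243 and 502 UMIs, or 19.0 (16.7 to 21.5) and 21.3 (19.5 to 23.3) CPM, a ratio of 1.13 (0.96 to 1.32). Mylk encodes myosin light chain kinase and, from an internal promoter, telokin, which these counts do not separate (ENSMUSG00000022836, chromosome 16, 34745210 to 35002420). It had 348 and 754 UMIs, or 27.2 (24.4 to 30.2) and 32.1 (29.8 to 34.4) CPM, a ratio of 1.18 (1.04 to 1.34). Neither gene reached 1.5-fold on either scale. Myh11 was found in few spots: 10.4% of thinned spots for PD1 Het and 12.6% for PD1 KO, with intervals that overlap. The shares of Mylk were 21.2% and 24.2%.

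Tagln encodes transgelin, or SM22 alpha, an actin-binding protein that appears early in smooth muscle and myofibroblasts (ENSMUSG00000032085, chromosome 9, 45929619 to 45936058). It had 407 and 1233 UMIs, or 31.8 (28.7 to 35.0) and 52.4 (49.5 to 55.4) CPM, a ratio of 1.65 (1.47 to 1.85) and a relative log2 ratio of 0.39 (0.23 to 0.56). Thinned spots with a Tagln UMI made up 17.4% (14.8 to 20.3) for PD1 Het and 27.8% (24.8 to 30.9) for PD1 KO. Without thinning, the shares were 25.4% and 52.8%, which also carry the deeper sequencing of the PD1 KO section. The last bases of Tagln overlap those of Pcsk7 on the opposite strand by 108 bases. Pcsk7 had 153 and 359 UMIs, and the use of strand in counting is not given in the sources used here.

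Cnn1 encodes calponin, which binds actin and restrains the myosin ATPase (ENSMUSG00000001349, chromosome 9, 22099216 to 22109630). It had 41 UMIs in 34 PD1 Het spots and 333 UMIs in 156 PD1 KO spots, or 3.20 (2.30 to 4.34) and 14.2 (12.7 to 15.8) CPM. The ratio was 4.43 (3.19 to 6.28), and the relative log2 ratio of 1.81 (1.34 to 2.32) was at rank 21 from the highest of the 11455 genes. The fullest spots held 4 and 18 of these UMIs, and without them the log2 CPM ratio was 2.21 in place of 2.15. Thinned spots with a Cnn1 UMI made up 3.69% (2.47 to 5.29) and 10.1% (8.17 to 12.4). With Tagln it was 1 of 2 members whose thinned share had a PD1 KO interval above the PD1 Het interval, which held for 31.5% of all genes, so the count of members is close to the background. With thinning to 5000 UMIs these 2 members had such intervals as well, against 20.2%. Cnn1 was also the one member whose relative ratio passed 1.5-fold.

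Smtn encodes smoothelin, an actin-binding protein named for contractile smooth muscle (ENSMUSG00000020439, chromosome 11, 3517523 to 3540612). It had 2750 and 5129 UMIs, or 215 (207 to 223) and 218 (212 to 224) CPM, a ratio of 1.02 (0.97 to 1.06) and a relative log2 ratio of -0.31 (-0.38 to -0.24). Like Acta2 it was detected almost everywhere, in 88.4% (85.9 to 90.6) and 86.2% (83.7 to 88.4) of thinned spots. None of the 6 genes shared a 31-base stretch of the last 400 bases of its annotated transcripts with a transcript of another gene (GENCODE vM21), Acta2 and the other actins included. No other gene overlaps a member on the same strand in that annotation.

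Whether each gene lies with vessel, scar or stressed cardiomyocyte genes was described with gene lists that hold none of the 6. The mural list holds genes of pericytes and vessel smooth muscle outside the contractile set, such as Rgs5, Notch3 and Pdgfrb. The scar list holds matrix and activated fibroblast genes, such as Postn, Col1a1 and Fn1, and the stressed list holds genes that injured cardiomyocytes raise, such as Nppa, Ankrd1 and Myh7. Spots in the top 10% of their section by the share of UMIs from a list were called high in it. Spots high in exactly 1 list numbered 51 for mural, 40 for scar and 47 for stressed among PD1 Het spots, and 71, 33 and 29 among PD1 KO spots. Spots high in none, 624 and 659, served as the comparison, and the density of a gene is its CPM within a class of spots. Mitochondrial genes took 27.2% and 16.8% of the UMIs in spots high in none but 14.8% and 9.39% in scar spots, and the part of this in the densities was not tested.

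Mural spots were denser in some of the contractile genes but not in all. In the PD1 Het section 3 of 6 members, Myh11, Mylk and Tagln, were at least 1.5-fold denser in mural spots than in spots high in none, against 8.84% of all genes with at least 100 UMIs. In the PD1 KO section 5 of 6, all but Smtn, were, against 8.17%. In scar spots 3 of 6 were for PD1 Het (Myh11, Tagln and Cnn1), against 33.2% of all genes, and the same 3 for PD1 KO, against 28.9%. In stressed spots 1 of 6, Cnn1, was in each section, against 9.18% and 12.8%. Cnn1, with 41 UMIs, is below the limit of 100 UMIs that the PD1 Het shares use, and without it the PD1 Het counts were 3 of 5 for mural, 2 of 5 for scar and 0 of 5 for stressed spots. Scar spots thus hold many denser genes of all kinds, and the members' count stands less far above that background than the count in mural spots. No member was at least 1.5-fold less dense in any of the classes except Myh11 in PD1 KO stressed spots, at 0.55-fold (0.20 to 1.21) on 6 UMIs. Of all genes, 5.31% and 2.22% were less dense by that much in mural spots, 7.36% and 9.44% in scar spots and 7.13% and 9.3% in stressed spots of PD1 Het and PD1 KO. Calls that rested on 1 spot were Myh11, Acta2 and Cnn1 for PD1 KO: without the fullest spot, Myh11 in scar spots was at 1.498-fold in place of 2.48-fold, Acta2 in mural spots at 1.47-fold, and Cnn1 in mural spots at 1.33-fold.

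**Figure D2:**
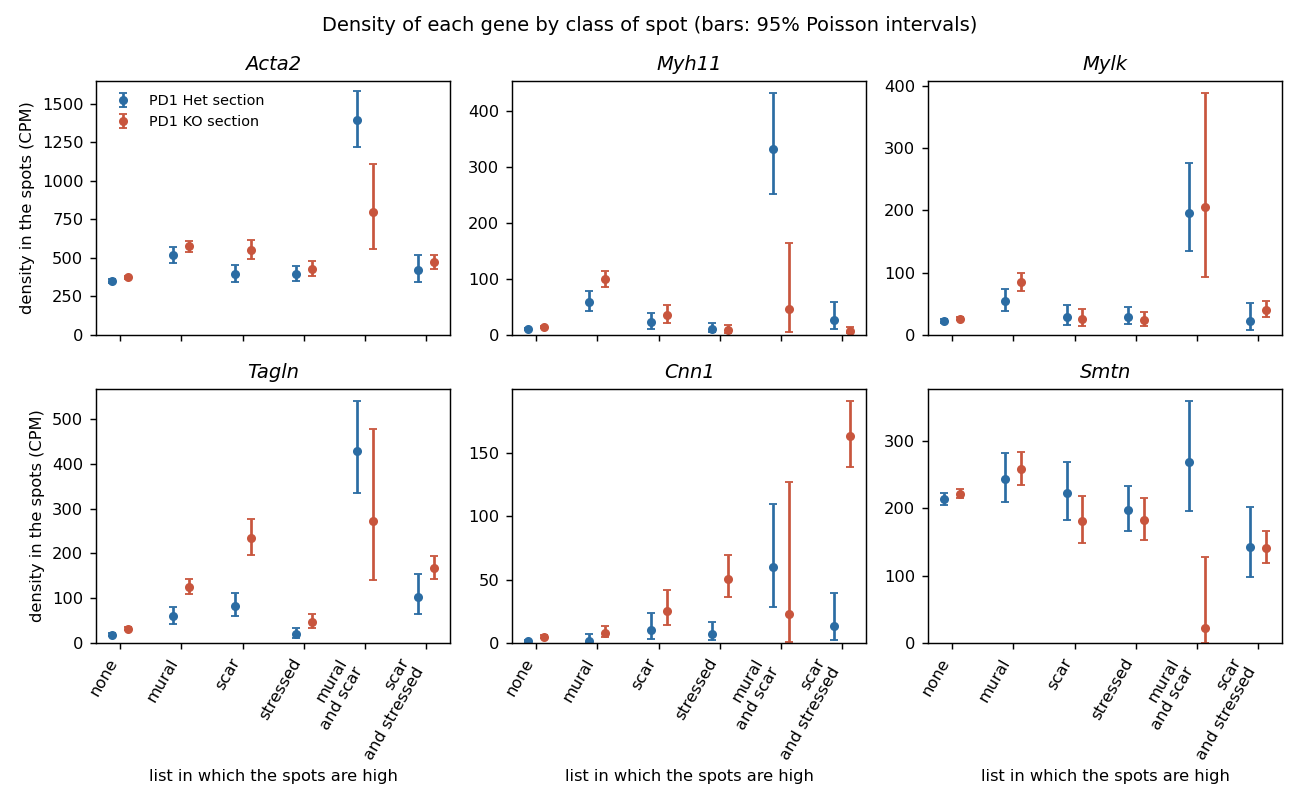
Density of each gene in CPM in spots high in no list, in 1 list, or in both lists of a pair, with a panel for each gene, colours for the 2 sections and bars for 95% Poisson intervals. Myh11 peaks in spots high in both the mural and the scar list of the PD1 Het section, at 333 CPM, and Cnn1 in spots high in both the scar and the stressed list of the PD1 KO section, at 163 CPM. The PD1 KO points for mural and scar rest on 3 spots.

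Myh11 lay with the vessel genes most clearly. Its density in mural spots was 58.2 (42.3 to 78.1) CPM for PD1 Het, 5.80-fold (3.98 to 8.33) that of spots high in none, and 99.2 (84.9 to 115) CPM for PD1 KO, 6.94-fold (5.70 to 8.43). In stressed spots it was 11.2 and 7.81 CPM, against 10.0 and 14.3 CPM in spots high in none. Among all genes outside the list, Myh11 had the highest Pearson correlation over spots with the mural list for PD1 KO (r = 0.35, rank 1 of 10787) and the third highest for PD1 Het (r = 0.26, rank 3 of 8594). Its correlation with arterial endothelial genes, such as Gja4 and Sox17, was the highest of all genes in both sections, at 0.38 and 0.50. With capillary and general endothelial genes it was -0.02 and 0.06, which is weak. With the top 20% of spots, Myh11 in PD1 Het scar spots was at 0.68-fold in place of 2.22-fold. All correlations are over 811 or 851 spots of log2(UMIs per 10000 + 1), the spots of a section share a library and differ in depth and composition, and values under 0.1 are called weak.

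Mylk followed Myh11. Its density in mural spots was 54.2 (38.9 to 73.6) CPM for PD1 Het and 84.2 (71.1 to 99.0) CPM for PD1 KO, or 2.51-fold (1.75 to 3.51) and 3.25-fold (2.68 to 3.92) that of spots high in none. In spots high in the scar list alone or the stressed list alone, its density ranged from 0.91-fold to 1.35-fold. Every interval there reached both sides of 1. These classes leave out scar spots that were also high in another list. Over 5 equal bins of spots by scar share, Mylk was higher in each next bin in both sections. It went from 18.1 to 47.8 CPM for PD1 Het and from 21.0 to 46.4 CPM for PD1 KO. With the top 20% of spots the PD1 Het value in mural spots was 1.48-fold, under the limit. It was at rank 2 of 8594 and rank 3 of 10787 genes by correlation with the mural list (r = 0.26 and 0.34).

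Acta2 was somewhat denser in mural spots and present at a high level everywhere. Its density in spots high in none was 349 and 373 CPM, against 516 (466 to 570) and 575 (540 to 612) CPM in mural spots, or 1.48-fold (1.33 to 1.64) and 1.54-fold (1.44 to 1.65). In scar spots it was 1.13-fold (0.97 to 1.30) for PD1 Het and 1.47-fold (1.31 to 1.65) for PD1 KO, or 1.16-fold without the fullest PD1 KO spot. In stressed spots it was 1.13-fold and 1.15-fold. The top 10% of spots by scar share, which include spots high in other lists, held 11.9% and 9.60% of Acta2 UMIs. Of all UMIs they held 7.53% and 7.31%. From the lowest to the highest of 5 equal scar bins, Acta2 went from 341 to 508 and from 350 to 500 CPM. In the 15 PD1 Het spots high in both the mural and the scar list it was at 1393 CPM. In the 3 such PD1 KO spots it was at 797 CPM. The PD1 KO call in mural spots did not hold with the top 20% of spots, where it was 1.23-fold.

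Tagln lay with both vessel and scar. In mural spots its density was 59.5 (43.4 to 79.7) CPM for PD1 Het and 126 (110 to 144) CPM for PD1 KO, 3.23-fold (2.28 to 4.50) and 3.90-fold (3.33 to 4.56) that of spots high in none. In scar spots it was higher still, at 83.0 (59.6 to 113) and 235 (197 to 277) CPM, or 4.51-fold (3.14 to 6.35) and 7.28-fold (6.01 to 8.77). The fullest PD1 KO scar spot held 49 of the 139 Tagln UMIs there, and without it the value was 4.90-fold. In stressed spots it was 1.06-fold (0.57 to 1.82) and 1.45-fold (1.01 to 2.04). Its correlation was 0.37 and 0.47 with the scar list and 0.28 and 0.36 with arterial endothelial genes, and -0.37 and -0.58 with ventricular cardiomyocyte genes.

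Inside the scar, Tagln was compared with vessel and matrix genes again. Choosing spots by scar share narrows the range of the scar list, so a low correlation with that list cannot set Tagln apart from matrix genes. Within the 81 PD1 Het spots of the top 10% by scar share, the correlation of Tagln was 0.41 with arterial endothelial genes and 0.05 with the scar list itself. Within the 85 such PD1 KO spots it was 0.24 and 0.48. With the mural list it was 0.36 for PD1 Het but -0.13 for PD1 KO in these spots. This split was chosen after the first values had been seen, and the difference between sections was not tested. Outside these spots the correlation of Tagln was 0.20 with arterial endothelial genes and 0.21 with the scar list for PD1 Het, and 0.44 and 0.24 for PD1 KO. With the mural list it was 0.17 for PD1 Het and 0.33 for PD1 KO there.

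Cnn1 was dense in both scar and stressed spots for PD1 KO. Its density there was 4.87 (3.93 to 5.96) CPM in spots high in none, 8.07 (4.41 to 13.5) CPM in mural spots, 25.3 (14.2 to 41.8) CPM in scar spots and 50.8 (36.1 to 69.4) CPM in stressed spots. The scar spots were thus 5.21-fold (2.80 to 9.04) and the stressed spots 10.4-fold (6.99 to 15.3) denser than spots high in none. Their order depended on how spots were chosen: scar and stressed spots were at 4.14-fold and 4.11-fold with the top 20% of spots, 4.93-fold and 4.64-fold with 1 cutoff for both sections, 11.6-fold and 7.03-fold with the mean of scaled genes, and 7.71-fold and 8.06-fold without Nppa in the stressed list. Spots high in both the scar and the stressed list were denser still by the 10% rule: 45 such spots, with 4.19% of all UMIs, held 161 of the 333 Cnn1 UMIs, at 163 (139 to 190) CPM or 33.5-fold (25.8 to 43.8). A Cnn1 UMI was present in 35 of the 45 spots. In the same spots Myh11 was at 0.50-fold (0.20 to 1.04), Tagln at 5.19-fold (4.34 to 6.17) and Acta2 at 1.26-fold (1.15 to 1.39). Sorting spots by pairs of lists was chosen after the first values had been seen.

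The correlation of Cnn1 with the stressed list for PD1 KO was 0.61, at rank 10 of 10791 genes. It was 0.49 with the scar list, at rank 124 of 10782, and 0.48 with the epicardial list, at rank 19 of 10796. By rank in this section, Cnn1 thus stood out with epicardial genes more than with scar genes, though the 0.49 and 0.48 are close. The stressed value was not above the scar value in every measure: Spearman's rho gave 0.32 and 0.36, the mean of scaled genes 0.47 and 0.57, and thinned spots 0.56 and 0.43. With the mural list it was -0.01. Within the top 10% of spots by scar share, a choice that narrows the range of the scar list, the correlation was 0.59 with the stressed list and 0.09 with the scar list. In all other spots it was 0.38 and 0.29, so Cnn1 went with both lists there. In the 43 PD1 KO spots with the most Cnn1 per UMI, the stressed list was 8.56-fold denser than in the 695 spots without Cnn1, the scar list 4.23-fold and the epicardial list 6.54-fold, while capillary and general endothelial genes were at 0.64-fold. All 10 epicardial markers were detected in both sections and summed to 49.2 and 74.6 CPM. These Cnn1 spots had a median of 22578 UMIs against 27471 in spots without Cnn1, and the part of depth and of epicardial cells in the Cnn1 signal was not tested.

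In the PD1 Het section Cnn1 was too sparse for a firm place. Its 41 UMIs included 1 in mural spots, 5 in scar spots, 5 in stressed spots and 16 in spots high in none. Another 10 lay in 15 spots high in both the mural and the scar list, at 59.5 (28.6 to 110) CPM, against 3 in 19 spots high in both the scar and the stressed list, at 13.4 (2.75 to 39.0) CPM. Its correlation was 0.20 with arterial endothelial genes, 0.19 with the scar list and 0.13 with the stressed list. With the epicardial list it was 0.009, which is weak, and that list was at 0.80-fold (0.49 to 1.23) in the 34 spots with Cnn1. The highest Cnn1 density thus lay in spots high in mural and scar genes for PD1 Het and in spots high in scar and stressed genes for PD1 KO, and this difference was not tested. It rests on few counts: the 10 PD1 Het UMIs lay in 4 of the 15 spots, and the PD1 Het intervals overlap. PD1 KO had only 3 spots high in mural and scar genes, with 1 Cnn1 UMI. The 1.5-fold call in PD1 Het scar spots did not hold with a single cutoff for both sections, where it was 1.45-fold.

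Smtn reached 1.5-fold in none of the 3 classes. Its density in mural spots was 1.14-fold (0.97 to 1.32) and 1.17-fold (1.06 to 1.29) that of spots high in none. In PD1 KO scar and stressed spots it was lower, at 0.82-fold (0.67 to 0.99) and 0.82-fold (0.69 to 0.97), and in spots high in both lists at 0.64-fold (0.53 to 0.75), with 0.67-fold (0.45 to 0.94) for PD1 Het. Its highest correlation was with ventricular cardiomyocyte genes, at 0.20 and 0.23, followed by capillary and general endothelial genes, at 0.10 and 0.21. Against the scar list it was -0.12 and -0.24, and with the mural list 0.06 and 0.10. Smtn thus followed cardiomyocyte genes more than mural genes in these spots, though both correlations are low.

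**Figure D3:**
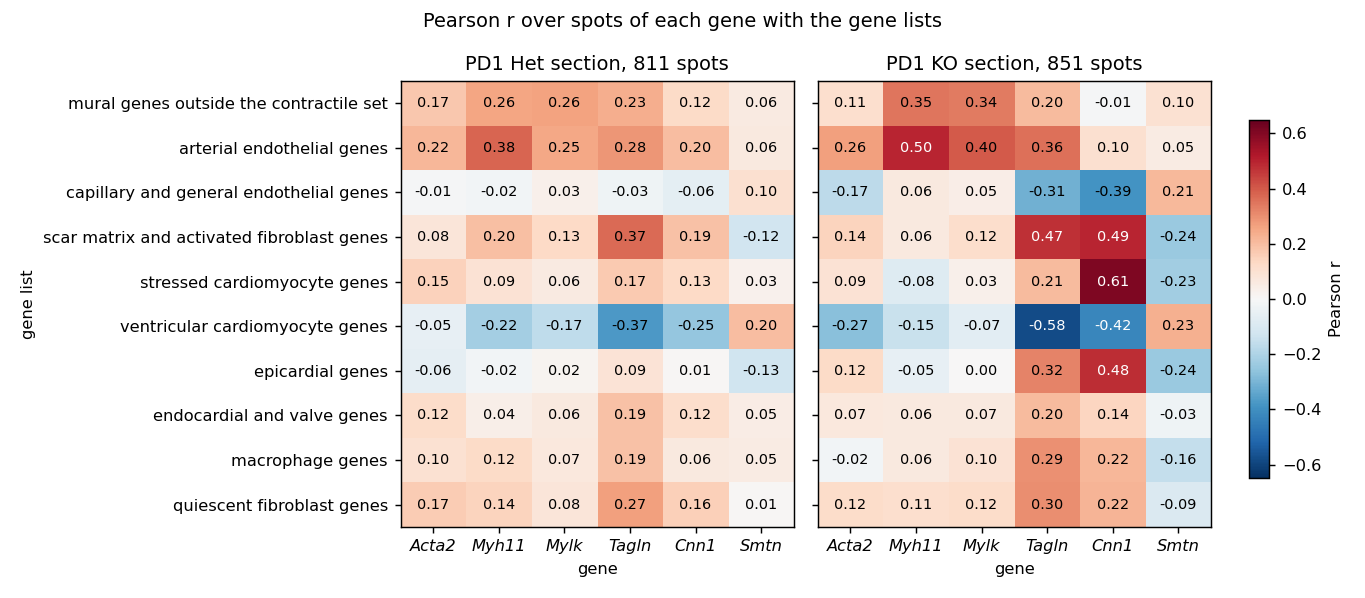
Pearson r over spots of each gene (columns) with 10 gene lists (rows), with 1 panel for each section and colour from blue (negative) to red (positive). Myh11, Mylk and Tagln are red for arterial endothelial genes in both panels, Cnn1 reaches 0.61 with stressed cardiomyocyte genes in the PD1 KO panel, and Smtn is red for ventricular cardiomyocyte genes.

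Counted over the members, 5 of 6 had r of at least 0.1 with the mural list in each section, against 4.47% of all genes for PD1 Het and 7.19% for PD1 KO. The missing member was Smtn for PD1 Het and Cnn1 for PD1 KO. With the scar list, 4 of 6 did in each section, against 18.1% and 24.7%. With the stressed list, 3 of 6 did for PD1 Het and 2 of 6 for PD1 KO, against 8.82% and 14.6%. Without Cnn1 the PD1 Het counts were 4, 3 and 2 of 5. The PD1 KO count for the mural list was 3 with Spearman's rho and 3 after thinning, and Acta2 and Smtn lay just above the limit, at 0.11 and 0.10.

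Spots chosen for Myh11 itself describe how the other members travel with it. In the 41 PD1 Het and 43 PD1 KO spots with the most Myh11 per UMI, Tagln was 13.7-fold (11.0 to 17.0) and 10.8-fold (9.46 to 12.3) denser than in spots without Myh11. Mylk was 6.32-fold (4.82 to 8.21) and 7.30-fold (6.09 to 8.73) denser and Acta2 was 2.69-fold (2.45 to 2.94) denser for PD1 Het, with an interval of 2.81 to 3.19 for PD1 KO. Cnn1 was 16.1-fold (7.70 to 33.5) denser for PD1 Het but 2.59-fold (1.80 to 3.64) for PD1 KO. Smtn was at 1.03-fold and 1.04-fold, with intervals that reach both sides of 1. Arterial endothelial genes were 3.22-fold and 3.83-fold denser there, and capillary and general endothelial genes were at 0.96-fold and 1.05-fold. Of the spots with the most Cnn1 per UMI, 10 of 34 for PD1 Het and 7 of 43 for PD1 KO were among these Myh11 spots.

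Pairs of members showed the same grouping. Myh11 and Tagln had r of 0.55 for PD1 Het and 0.53 for PD1 KO, Myh11 and Mylk 0.41 and 0.54, and Acta2 and Tagln 0.32 and 0.46. Cnn1 and Myh11 had 0.40 for PD1 Het and 0.12 for PD1 KO, while Cnn1 and Tagln kept 0.40 and 0.44. Smtn had values between -0.20 and 0.07 with each of the other 5 genes.

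The genes most like each member over the spots were searched among those with at least 100 UMIs in each section, by the mean r of both sections. For Myh11 they were Tagln (0.54), Mustn1, a small nuclear protein of muscle (0.52), and Sema3g, a semaphorin of arterial endothelium (0.49). For Mylk they were Myh11 (0.47), Sema3g (0.38) and Tagln (0.37), and for Tagln they were Myh11 (0.54), Mustn1 (0.50) and the LIM-domain gene Crip1 (0.48). For Acta2 they were Myl9, the light chain that Mylk phosphorylates (0.40), Tagln (0.39) and Myh11 (0.37). Cnn1 had another company: Clu, the secreted chaperone clusterin, with 0.19 for PD1 Het and 0.66 for PD1 KO, Tagln, and Nppa, the atrial natriuretic peptide, with 0.19 and 0.57. For Smtn they were the cardiomyocyte genes Fhl2 (0.29), Atp2a2, the calcium pump (0.27), and Pln, phospholamban (0.24).

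Along the share of scar genes, divided into 5 equal bins of spots, Tagln was higher in each next bin in both sections, from 8.1 to 97.8 CPM for PD1 Het and from 18.4 to 137 CPM for PD1 KO. Myh11 went from 4.8 to 48.2 CPM and from 10.8 to 34.4 CPM. Cnn1 stayed between 2.2 and 3.5 CPM in the 3 lowest bins of the PD1 KO section and reached 11.6 and 61.7 CPM in the upper ones. Along the share of stressed cardiomyocyte genes the PD1 KO section gave Tagln 76.0 CPM in the lowest bin and 84.8 CPM in the highest, with 32.9 to 35.9 CPM between. Tagln was thus high at both ends of the stress ranking there, and Myh11 was high in the lowest bin alone, at 34.6 CPM against 13.5 to 23.1 CPM in the others. The PD1 Het section differed, with Myh11 at 14.5 CPM in the lowest bin and 26.4 CPM in the highest, and Tagln at 24.5 and 44.8 CPM.

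**Figure D4:**
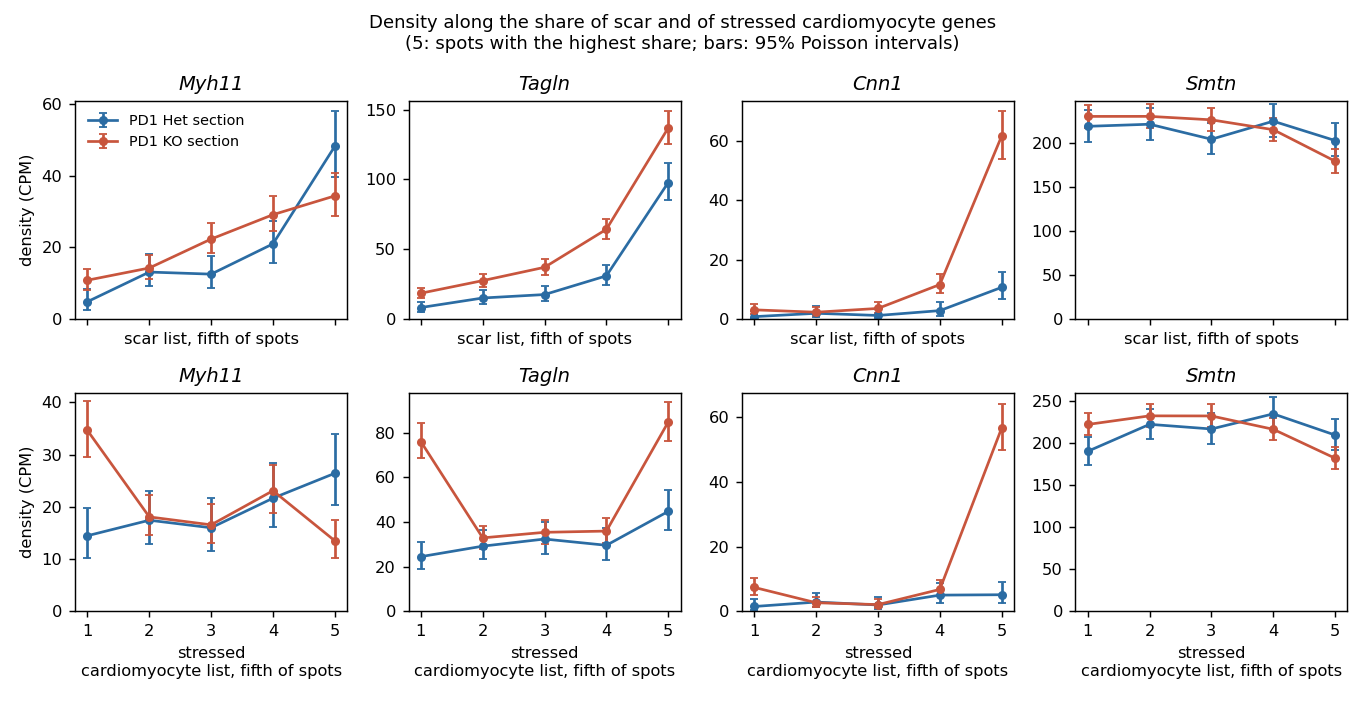
Density in CPM of Myh11, Tagln, Cnn1 and Smtn in 5 equal bins of spots ranked by the share of scar genes (top row) or of stressed cardiomyocyte genes (bottom row), with lines for the 2 sections and bars for 95% Poisson intervals. Cnn1 reaches 61.7 and 56.6 CPM in the highest bins of the PD1 KO section, and Smtn lies between 179 and 235 CPM throughout.

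Cnn1 and Tagln were higher for PD1 KO also among spots below the 10% cutoffs, which were set in each section on its own. Such spots still held 2383 CPM of the stressed list for PD1 Het and 3443 CPM for PD1 KO. Of the scar list they held 3806 and 5246 CPM, so they do not lie equally far from scar and stress. In spots high in none of the lists, Cnn1 had 16 PD1 Het and 93 PD1 KO UMIs, a CPM ratio of 3.12 (1.83 to 5.69), and Tagln had 189 and 616 UMIs, a ratio of 1.75 (1.49 to 2.07). The ratio of Cnn1 was 7.29 (2.87 to 23.7) in stressed spots and 2.50 (0.86 to 8.80) in scar spots. Tagln had ratios of 2.11 (1.53 to 2.98) in mural, 2.83 (1.98 to 4.11) in scar and 2.40 (1.26 to 4.82) in stressed spots. In spots high in several lists the ratios were 0.84 (0.67 to 1.06) for Tagln, 0.64 (0.56 to 0.72) for Acta2, 0.17 (0.11 to 0.27) for Myh11 and 5.43 (3.15 to 10.1) for Cnn1. These spots are not a like set in the sections. For PD1 Het 15 were high in mural and scar, 8 in mural and stressed, 19 in scar and stressed and 7 in all 3. For PD1 KO these numbers were 3, 7, 45 and 4, and the part of this mix in the ratios was not tested. Acta2 lay at 1.07 (1.03 to 1.11) in spots high in none and 1.40 (1.17 to 1.68) in scar spots. The median gene had log2 CPM ratios between 0.13 and 0.34 in these classes. The stressed list summed to 2779 and 5335 CPM in the sections and the scar list to 4932 and 7313 CPM. The stressed sums depend much on Nppa, which alone had 4583 PD1 Het and 48913 PD1 KO UMIs. By the median gene of each list, the log2 CPM ratio was 0.52 for the stressed list and 0.69 for the scar list. The part of both lists in the ratios of Cnn1 and Tagln was not tested.

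Myh11 and Mylk in mural spots were higher for PD1 KO, with CPM ratios of 1.70 (1.22 to 2.43) and 1.55 (1.09 to 2.25), but not in spots high in several lists, given above. For PD1 Het, 15 spots were high in both the mural and the scar list and held 56 of the 243 Myh11 UMIs, at 333 (252 to 433) CPM, whereas PD1 KO had 3 such spots with 2 UMIs. The fullest PD1 Het spot held 25 of the 56, and without it the density was 20.1-fold that of spots high in none in place of 33.2-fold. With 1 cutoff for both sections, the median log2 CPM ratio of the members in mural spots was -0.11 in place of 0.70. Over the whole sections the interval of the Myh11 ratio included 1.

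**Figure D5:**
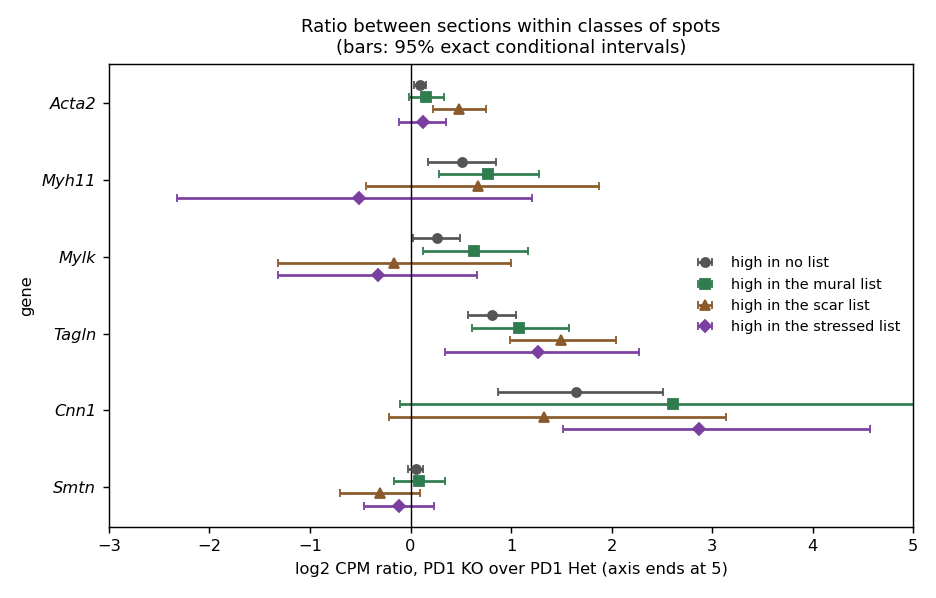
Log2 CPM ratio of PD1 KO over PD1 Het for each gene in spots high in no list, in the mural, in the scar or in the stressed list, with bars for 95% exact conditional intervals. Spots high in several lists are not drawn. Tagln lies above 0 in all 4 classes drawn, the points of Acta2 lie between 0.10 and 0.48 and those of Smtn between -0.30 and 0.09, and the bar of Cnn1 in mural spots, which rests on 1 and 14 UMIs, runs past the end of the axis.

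Other genes of the pathway lay nearer to the median gene than Cnn1. Of 19 other smooth muscle contractile genes, 0 exceeded the median gene by 1.5-fold and 2 lay as far below it, with a median relative log2 ratio of -0.15 and a log2 CPM ratio of 0.18. Lmod1, leiomodin, an actin nucleator, was among those below, at -0.68 (-1.28 to -0.07) on 41 and 59 UMIs. The most abundant were Tpm1, a tropomyosin that cardiomyocytes also use, at -0.15, and Ldb3, a Z-disc protein, at 0.04. Of 15 genes of myosin light chain phosphorylation 1 lay above and 0 below, with a median of 0.13. The 1 above was Prkg1, the cGMP-dependent kinase that relaxes smooth muscle, at 0.93 (0.56 to 1.32) on 74 and 326 UMIs. Ppp1r12c, a subunit of myosin phosphatase, lay at -0.57 (-0.69 to -0.45), and the light chains Myl6 and Myl12a at -0.17 and 0.21.

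Among regulators and upstream signals no gene passed 1.5-fold, a count near the background of 5.5% above and 3.3% below. Of 15 regulators around myocardin and serum response factor, 0 lay 1.5-fold above or below, with a median of 0.09. Yap1, a coactivator that responds to mechanical load, lay at 0.42 (0.26 to 0.58), Mrtfb, a myocardin-related coactivator, at 0.27 (0.08 to 0.47), and Fhl1 and Fhl2 at 0.26 and -0.18. Of 14 upstream signals, again 0 did, with a median of 0.02, Tgfb3 at 0.36 (0.16 to 0.57), the angiotensin receptor gene Agtr1a at 0.34 (0.13 to 0.55), and Tgfbr2 at -0.08, with Notch1 at the median gene. Of 8 elastic vessel wall genes 0 did, with a median of -0.13, Eln, elastin, at -0.42 (-0.46 to -0.39), Fbln2 at -0.35 (-0.42 to -0.28) and Mgp at -0.03.

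By location, some of the other contractile genes were denser in each class, and the median of the list was modest. It was 1.13-fold, 2.09-fold and 1.31-fold in mural, scar and stressed spots for PD1 Het. For PD1 KO it was 1.46-fold, 1.79-fold and 1.20-fold. In mural spots 7 of 17 with at least 30 UMIs were at least 1.5-fold denser for PD1 Het and 8 of 18 for PD1 KO, against 8.84% and 8.17% of all genes. In scar spots 9 and 10 were, against 33.2% and 28.9%, and in stressed spots 5 and 3, against 9.18% and 12.8%. The PD1 KO count in stressed spots is thus near its background. The shares of all genes use a limit of 100 UMIs, above the 30 used for this list. Mustn1 was 4.37-fold denser in PD1 KO mural spots, and Actg2, the enteric actin, 5.20-fold and 8.42-fold denser in scar spots on 48 and 84 UMIs in all. Myl9 lay at 1.51-fold, 2.37-fold and 1.67-fold in mural, scar and stressed spots for PD1 Het and at 1.48-fold, 1.88-fold and 1.88-fold for PD1 KO. Tpm2 lay at 1.90-fold, 2.42-fold and 1.72-fold for PD1 Het and at 1.83-fold, 2.60-fold and 2.39-fold for PD1 KO. All 8 elastic wall genes were denser in scar spots of both sections, against 2 and 3 of 8 in mural spots. Their median was 4.58-fold and 3.41-fold in scar spots and 1.33-fold and 1.46-fold in mural spots, and Eln was at 13.7-fold and 5.03-fold in scar and 1.11-fold and 1.32-fold in mural spots. Actg2, Mustn1, Myl9 and Tpm2 were chosen here after their values had been seen.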

How the data were processed

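The authors deposited raw UMI counts by gene and spot, and Space Ranger 1.1.0 is named per the file headers. Builds mm10 and GRCm38 come from the submitters' processing notes. How strand was used, which annotation was used and how the listed spots were chosen is not given in the sources. Spot positions were not used. Counts of spots with at least 500 UMIs were summed, then divided by the section's total to give CPM, with Python 3.11.15, numpy 2.4.6 and scipy 1.17.1. Intervals are exact: Poisson for sums, Clopper-Pearson for shares and conditional for ratios. The total counts give a limit, for a count of 0, of 3 counts, or 0.234 and 0.128 CPM. PD1 Het and PD1 KO were taken from the genotype labels. With 1 section per group no test was run and spots were not used as replicates.

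The 6 genes, the 15 lists of 188 genes (all matched) and the tests were chosen with earlier results of these data known. Named genes were the members, the 3 genes most like each, and in each of 5 pathway lists the 2 most abundant genes and the 2 farthest from the median gene (at least 30 UMIs), besides genes that overlap a member. List ratios use genes with at least 10 UMIs. Positions are from GENCODE vM21 (GRCm38). The steps were tested on simulated data. Alternatives used edgeR 4.0.16 TMM factors, size factors, other spot filters, cutoffs, scores and thinning depths. The values of 1 gene that the naming rule selects are not reported here.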

Additional observations from a re-analysis of the deposited data

How the results depend on the processing

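The median log2 CPM ratio of the 6 genes, 0.20, was -0.10 with TMM factors, -0.10 with size factors and 0.027 with a total without mitochondrial genes, and 0.52 without spots high in the scar or stressed list. Cnn1 and Tagln stayed higher in the PD1 KO section under all 9 alternatives. The alternative that takes the median gene over genes with at least 10 UMIs leaves the CPM ratios unchanged by design. Acta2, Myh11, Mylk and Smtn turned negative with TMM and size factors, and Acta2, Myh11 and Smtn also without mitochondrial genes. The count of members 1.5-fold above the median gene was 2 in place of 1 without spots high in the mural list. TMM and size factors cannot change that count, as it is relative to the median gene. Denser members in PD1 KO mural spots were 3 in place of 5 with the top 20% of spots and 3 with 1 cutoff for both sections. In PD1 Het mural spots they were 5 in place of 3 with the mean of scaled genes, and in PD1 Het stressed spots 3 in place of 1 with 1 cutoff. That cutoff moved the median ratio in mural spots from 0.70 to -0.11. Members at r of 0.1 with the mural list in the PD1 KO section were 3 in place of 5 with Spearman's rho and 3 after thinning. With size factors the list medians were -0.13 for other contractile genes, 0.15 for light chain phosphorylation, 0.11 for regulators, 0.040 for upstream signals and -0.11 for elastic wall genes, against 0.18, 0.46, 0.42, 0.35 and 0.20. These shifts follow from the scaling itself, and the cause of the others was not tested. The largest move among the correlations was Cnn1 with the stressed list for PD1 KO, from 0.61 to 0.32 with Spearman's rho. Values of Cnn1 for PD1 Het rest on 41 UMIs. No paired analysis was possible because each group has 1 section and no test was run.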
